A study of Mus musculus with 6 samples.

Results

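The 4 wild-type (WT) arrays of this series give the baseline expression profile of osteoblastic cells, the cells that lay down bone. They were chosen by their titles, WT replicate 1 to 4, from 6 arrays in all; the 2 arrays of cells without the neuropeptide Y receptor Y1 were not used. All 4 came from male WT mice that carried green fluorescent protein (GFP) under a 3.6-kb piece of the rat alpha1(I)-collagen promoter. Marrow stromal cells from femora and tibias were grown for 7 days in control medium, trypsinised, and sorted for GFP by flow cytometry before total RNA was taken. The profile is therefore that of cultured cells in which a type I collagen promoter fragment was active, and type I collagen is itself the basis of the sort. Strain and age were not given in the sources used here, and the labels name separate replicates but do not say whether an array held 1 mouse or a pool, so the spread given here is that between these samples and may be partly technical.

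Osteoblasts descend from marrow stromal progenitors, secrete a matrix built mainly of type I collagen and deposit mineral into it with the help of membrane phosphatases and phosphate transporters. Some become surrounded by matrix and turn into osteocytes, which carry a further set of matrix and phosphate-regulating proteins. Osteoblasts also steer bone-resorbing osteoclasts and support blood-forming cells through secreted signals, and they use glycolysis heavily.

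Each value is a deposited log2 expression value, on which a step of 1 is a 2-fold difference in array signal. With the brightest single-symbol probe set taken for each gene, 19935 genes were ranked by their WT mean. The median mean level was 5.68, 10% of genes lay below 2.99 and the top 10% lay above 8.73, with a maximum of 13.55. Because a probe set's brightness also depends on its probes, the order is one of array signal and gives only a rough order of transcript amount. As a measured background, 1240 smell and taste receptor genes had a median of 2.72 and a 95th percentile of 4.37. In every array 13621 genes, or 68.3% of all, exceeded that array's own 95th percentile; they are called above background here. By its definition this threshold lets some receptor genes pass, and 44 of the 1240 did. Passing it is therefore no proof that a gene was expressed. The array medians were 5.68, 5.68, 5.67 and 5.71, and correlations between arrays across genes lay between 0.991 and 0.996.

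The 30 genes with the highest level were dominated by bone matrix, the cytoskeleton and the machinery of protein synthesis. In groups formed after the values were seen, 8 of the 30 encode matrix proteins or their crosslinker, 7 encode ribosomal proteins, 4 encode cytoskeletal proteins and 2 are translation genes. The 8 matrix genes were Col1a1 and Col1a2 (the chains of type I collagen), Sparc (osteonectin), Ibsp (bone sialoprotein), Thbs1 (thrombospondin), Fn1 (fibronectin), Bgn (biglycan) and Lox (lysyl oxidase, which crosslinks collagen). Their means ran from 12.21 for Lox to 13.42 for Col1a1. The cytoskeletal genes were Actb, Acta2, Vim and Tuba1a, with means from 12.30 to 13.42. Beyond these groups, Lgals1 (galectin), B2m (the light chain of MHC class I), Txn1 (thioredoxin), Ppia, Hspa8 and the mitochondrially encoded COX2 were also among the 30. So was the small non-coding RNA gene Rn7sk, at rank 6 with a mean of 12.99.

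At the edge of that group, Tpt1 at 12.16 was the last member, and Calm2 at 12.15, Scd2 at 12.15 and Eif4a1 at 12.13 were just outside. Of the 30 genes, 14 had several probe sets, and in 5 of these the probe sets lay at least 1 log2 unit apart. The first-ranked gene shows what that means: Baiap2l1, an adaptor of actin and membrane curvature, had 1 probe set at 13.55 and others at 10.57 and 5.63. Hk1, the hexokinase of most tissues, had probe sets at 12.23 and 8.11. Their places in the order thus depend on a single probe set, and the ribosomal protein genes, which have many processed copies, are likewise uncertain.

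The chosen markers of osteoblastic cells were all near the top of the profile. Col1a1 read 13.41, 13.35, 13.44 and 13.46 in WT 1 to 4, a mean of 13.42 ± 0.05 (SD, n = 4). Sparc read 12.89, 12.78, 12.99 and 12.95, and Alpl, the alkaline phosphatase that frees phosphate for mineral, read 11.68, 11.36, 11.49 and 11.63. Ibsp, a mineral-binding glycoprotein, read 12.86, 12.34, 12.94 and 12.87, with WT 2 apart from the other 3. Between the highest and the lowest array Col1a1 ranged over 1.08-fold, Sparc over 1.16-fold and Alpl over 1.25-fold, whereas Ibsp ranged over 1.52-fold. All 4 markers had their lowest value in WT 2.

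**Figure D1:**
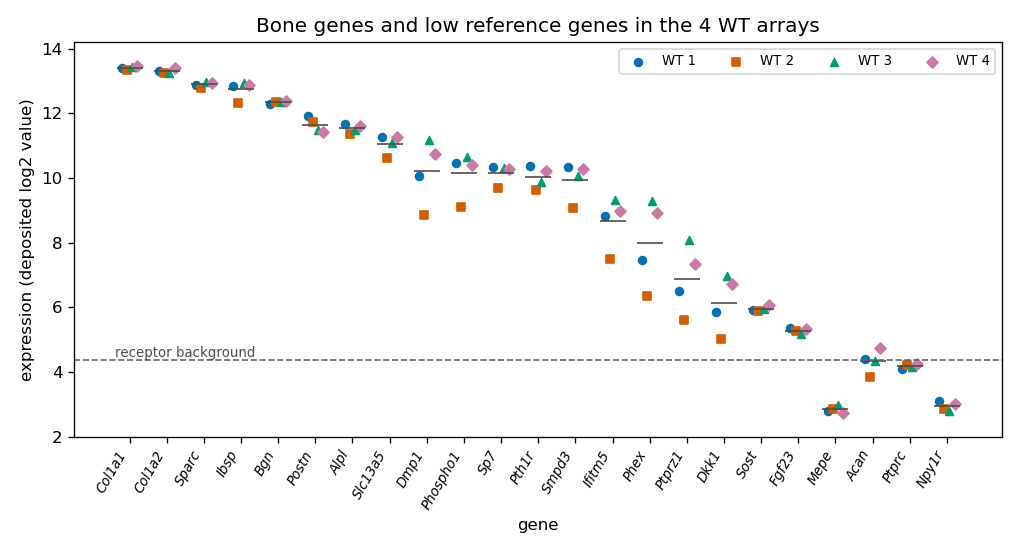
Deposited log2 values (vertical axis) of bone genes and of low reference genes in WT 1 to 4, with the mean as a bar and the receptor background of 4.37 as a dashed line. Col1a1 and Col1a2 sit together near 13.4, while Dmp1, Phospho1, Ifitm5, Phex and Ptprz1 spread widely and have their lowest point in WT 2.

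Upstream sequences of 3 of these genes are given because they belong to the most abundant bone transcripts and differ in the elements they hold. They are the 150 bases before the annotated start, from RefSeq (GRCm38.p6), 5′ to 3′ on the gene's strand, with CCAAT (or its reverse complement) and, within the last 40 bases, TATAAA (or its reverse complement) in capitals. Col1a2 lies at chr6:4505468-4505617 on the plus strand, Sparc at chr11:55420081-55420230 on the minus strand and Ibsp at chr5:104299137-104299286 on the plus strand.
Col1a2: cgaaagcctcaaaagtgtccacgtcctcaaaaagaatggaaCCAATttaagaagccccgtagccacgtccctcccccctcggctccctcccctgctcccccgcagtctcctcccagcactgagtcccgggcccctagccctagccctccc
Sparc: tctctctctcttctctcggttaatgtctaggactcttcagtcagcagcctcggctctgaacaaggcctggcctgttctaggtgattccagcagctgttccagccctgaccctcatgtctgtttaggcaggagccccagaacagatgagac
Ibsp: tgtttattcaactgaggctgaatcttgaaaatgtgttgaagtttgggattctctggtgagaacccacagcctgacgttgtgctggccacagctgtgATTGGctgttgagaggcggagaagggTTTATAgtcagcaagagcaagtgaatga
The Col1a2 sequence held 1 CCAAT, the Ibsp sequence held 1 CCAAT and 1 TATAAA, both in reverse, and the Sparc sequence held neither. Only genes with a single listed start were searched, and Col1a1 is not among those sequences.

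Collagen genes beyond type I were broadly present. All 11 fibrillar chains were above background, beside 68.3% of all genes, and 7 of the 11 were in the top 10% of genes. Col3a1, which forms mixed fibrils with type I, read 11.69, 11.81, 10.79 and 11.35, so WT 3 was lowest by over 0.5. Col5a2 and Col5a1, which set fibril diameter, averaged 11.23 and 10.19. The cartilage chain Col2a1 read 10.40, 10.80, 10.07 and 10.50, and Col11a1 and Col11a2, also known from cartilage, averaged 10.08 and 8.05. Col24a1 was highest in WT 3 and WT 4, at 7.43 and 7.47, and lowest in WT 2 at 6.49. All 16 other collagen chains were above background too, led by Col8a1 at 11.65, Col12a1 at 11.34 and the type VI chain Col6a3 at 11.05. The lowest was Col14a1 at 4.73.

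The enzymes that hydroxylate, fold and trim collagen were also high. All 22 measured members of that list were above background, beside 68.3% of all genes, and 17 were in the top 10%. Their median percentile was 96.6. P4hb and Ppib, which serve prolyl hydroxylation and folding in the endoplasmic reticulum, averaged 11.98 and 11.57. Pcolce, an enhancer of procollagen cleavage, averaged 11.66. P4ha1, a catalytic subunit of prolyl hydroxylase, read 10.93, 9.90, 11.05 and 11.11, so WT 2 lay about 1 log2 unit below the others, and it was the 1 member with a 2-fold range. Its relative P4ha2 was highest in WT 1 at 9.63 and lowest in WT 2 at 9.03.

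Non-collagenous matrix genes ranged from the very highest signals to the background. Of 26 measured members, 24 were above background, beside 68.3% of all genes, and 16 were in the top 10%. A range of at least 2-fold over the arrays was seen in 8, beside 1.72% of all genes. Tnc (tenascin) at 12.05 and Postn (periostin) at 11.65 followed the genes named above. Dmp1, an acidic phosphoprotein of bone, read 10.07, 8.85, 11.19 and 10.74. Lum (lumican) read 7.94, 6.86, 8.91 and 7.34, and Dcn (decorin) read 8.80, 7.96, 9.73 and 8.86; both collagen-binding proteoglycans were lowest in WT 2 and highest in WT 3. Thbs2 and Tnn ran the other way: Thbs2 read 11.47, 11.78, 10.60 and 10.91, and Tnn read 10.58, 10.88, 9.49 and 9.82. Aspn, a small leucine-rich proteoglycan, was likewise lowest in WT 3 at 7.66. Mepe at 2.84 and Dspp at 4.25, phosphoproteins of late bone and of dentin, were the 2 members not above background.

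The mineralisation list had a median percentile of 91.8. Of its 16 members 14 were above background, beside 68.3% of all genes, and 10 were in the top 10%. The annexins Anxa5, Anxa2 and Anxa6, found in matrix vesicles, averaged 11.75, 11.35 and 10.92 and varied little. The citrate transporter Slc13a5 read 11.27, 10.61, 11.09 and 11.26. Phospho1, a phosphatase of matrix vesicles, read 10.47, 9.11, 10.66 and 10.40. Smpd3, a sphingomyelinase needed for mineralisation, read 10.35, 9.07, 10.07 and 10.29. Ifitm5, a membrane protein of mineralising osteoblasts, read 8.84, 7.49, 9.34 and 8.98. In each of these 4 genes WT 2 was the lowest, and for Phospho1, Smpd3 and Ifitm5 the other 3 arrays lay about 1 log2 unit or more above it. Of the phosphate importers, Slc20a2 was highest in WT 3 at 9.66, as were Phospho1 and Ifitm5, whereas Slc20a1 was highest in WT 2 at 9.31. Slc34a2 at 3.67 and Ahsg, a liver gene, at 3.97 were not above background.

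With all 4 arrays, the mean of the osteocyte list showed the widest difference between arrays of the 46 lists. The mean of the 13 members, each centred on its own WT mean, was −0.05, −0.44, 0.33 and 0.16 in WT 1 to 4, a range of 0.78. Phex, an endopeptidase that regulates phosphate, read 7.46, 6.36, 9.30 and 8.92, a 7.65-fold range. Ptprz1, a receptor phosphatase, read 6.51, 5.60, 8.07 and 7.34. Dkk1, an inhibitor of Wnt signalling, read 5.86, 5.01, 6.98 and 6.71. With Dmp1, these 4 genes kept 1 order, lowest in WT 2 and then WT 1, WT 4 and WT 3. These 4 were the only members of the 13 with a 2-fold range. They carried most of the difference in the list mean, which is thus mainly theirs and not one of the whole list. Over the list, 7 of 13 genes were lowest in WT 2 and 7 were highest in WT 3; Fam20c, Irx5 and Sost were also lowest in WT 2, and Irx5, Pdpn and Mepe also highest in WT 3. Sost (sclerostin) at 5.95 and Fgf23 at 5.28, a Wnt inhibitor and a phosphate hormone of mature osteocytes, varied by 0.20 and 0.17 between arrays, and Capg and Cd44 were lowest in WT 3. Without WT 2 the range of the list mean was 0.38, below those of glycolysis at 0.57, interferon response at 0.45 and stromal progenitor genes at 0.40 in the same 3 arrays.

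Osteoblast transcription factors were mostly of middle to high level. All 19 measured members were above background, beside 68.3% of all genes, and 6 were in the top 10%. Sp7 (osterix), needed to form osteoblasts, read 10.35, 9.70, 10.30 and 10.28, lowest in WT 2. Prrx1, a mesenchymal homeobox factor, averaged 10.56 with an SD of 0.05, and Snai2 averaged 10.36. Dlx5 read 9.15, 8.77, 9.50 and 9.32, and Dlx3 read 7.53, 6.52, 7.76 and 7.72. Hey1, a target of Notch and BMP signals, read 6.26, 5.94, 7.68 and 7.02. Among these 19 genes, 11 had their lowest value in WT 2 and 9 their highest in WT 3. The lowest members were Lef1 at 4.91 and Msx2 at 5.58. Runx2, Bglap and Spp1 were not analysed here.

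Receptors for bone hormones were led by Pth1r, the receptor for parathyroid hormone, which read 10.37, 9.64, 9.89 and 10.22. The FGF receptors Fgfr1 and Fgfr2 averaged 9.88 and 9.58. Of the 21 measured receptors 19 were above background, beside 68.3% of all genes. Lepr, the leptin receptor that also marks marrow stroma, read 7.93, 7.12, 8.85 and 7.92, the 1 member with a 2-fold range. Vdr, the vitamin D receptor, read 6.97, 7.36, 7.97 and 7.63, highest in WT 3. Calcr at 4.04 and Ptger2 at 3.60 were not above background.

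In the neuropeptide Y system, the subject of the wider study, the receptor genes were near the floor of these arrays. Npy1r, the Y1 receptor gene, read 3.11, 2.84, 2.78 and 3.00 and was not above background in any array. The other receptors Npy2r, Npy4r, Npy5r and Npy6r averaged between 2.08 and 3.84, and the peptidase gene Dpp4 averaged 3.54. The ligand genes Pyy, Ppy and Npy averaged 5.99, 5.56 and 5.01, beside a median of 5.68 over all genes. They were the 3 of 9 members above background, beside 68.3% of all genes, and their arrays differed by no more than 0.21. A low signal limits what these probes can show and does not show that the receptor was absent.

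Signals to other marrow cells included very high Cxcl12, the chemokine that retains blood stem cells, at 11.00, 11.42, 11.64 and 11.13. Csf1, a growth factor for osteoclast precursors, read 10.20, 10.79, 10.21 and 10.21, so WT 2 alone was higher. Tnfrsf11b (osteoprotegerin) read 8.96, 9.15, 8.34 and 8.22, and its ligand Tnfsf11 (RANKL) read 7.12, 7.14, 7.52 and 7.41. The decoy receptor was thus higher in WT 1 and WT 2 and the ligand higher in WT 3 and WT 4. Kitl (stem cell factor) averaged 8.48 and was highest in WT 3. Il6, Csf2 and Il1b were not above background.

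Among pathway genes, several Wnt inhibitors and an enhancer stood above the ligands by mean level. The inhibitors Dkk1 and Sost were lower than the ligand Wnt5a. Sfrp2 read 11.09, 11.63, 10.40 and 10.43, Rspo2, an enhancer of Wnt signalling, read 10.32, 10.61, 9.83 and 9.95, and Dkk3 averaged 9.96. These 3 were higher in WT 1 and WT 2 than in WT 3 and WT 4. Wif1 read 9.01, 7.64, 9.10 and 9.39, and Frzb read 7.06, 5.83, 8.32 and 7.76, both lowest in WT 2. The highest Wnt ligand, Wnt5a, read 7.51, 7.49, 6.32 and 6.63. Of 35 Wnt genes 34 were above background, beside 68.3% of all genes, and 7 had a 2-fold range, beside 1.72%. Of 36 BMP and TGF-beta genes 35 were above background, led by Bmp1 at 10.73 and Id3 at 10.05, and Inhba (activin A) read 9.69, 9.96, 8.32 and 8.83. In the IGF list, Igfbp7 at 11.80 and Igfbp4 at 11.60 were far above Igf1, which read 4.67, 4.79, 5.87 and 4.94, while Igfbp5 read 9.14, 9.21, 10.33 and 9.15, with WT 3 alone higher in both. In the Notch list, all 18 genes were above background, and the targets Heyl and Hey1 were highest in WT 3, at 7.63 and 7.68, as was Notch3 at 8.26.

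**Figure D2:**
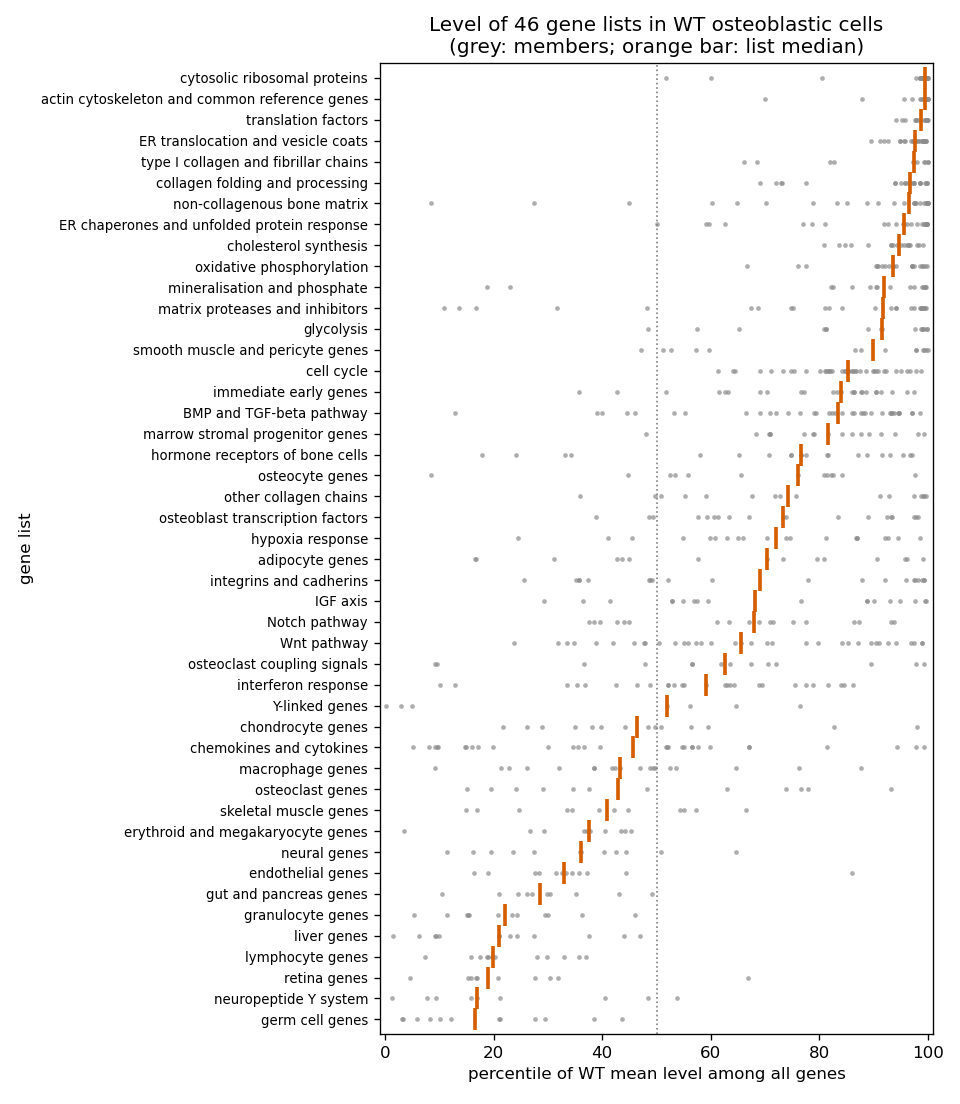
Percentile of the WT mean level among all 19935 genes (horizontal axis) for the members (grey points) and the median (orange bar) of each of the 46 gene lists. Ribosomal proteins have the highest median, 99.5, and germ cell genes the lowest, 16.6.

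General cell functions made up the rest of the highest lists. Ribosomal protein genes had a median percentile of 99.5, with 25 of 28 measured genes in the top 10%, and all 14 translation factors were there as well. The secretory route was prominent: 24 of 25 genes of translocation and vesicle coats and 16 of 23 chaperone and unfolded protein response genes were in the top 10%, beside 10% by definition over all genes. P4hb, Hsp90b1 (a chaperone) and Hspa5 (BiP) averaged 11.98, 11.96 and 11.86. Cholesterol synthesis, with a median percentile of 94.7, and oxidative phosphorylation, at 93.6, were close behind. All 39 cell cycle genes were above background, beside 68.3% of all genes. Among them were Ccnd1 (cyclin D1) at 10.85, Rrm2 at 9.76, Top2a at 9.30 and Mki67 at 8.72. All 25 immediate early genes were above background too; Ptgs2 (cyclooxygenase-2) read 10.50, 10.22, 9.77 and 10.25, Fos averaged 8.78 and Egr1 averaged 8.48. Proteases of matrix turnover were led by Mmp13 (collagenase-3), which read 11.52, 12.00, 11.88 and 11.45, with Mmp14 at 11.08, Mmp2 at 10.95 and the inhibitor Timp1 at 11.58.

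Markers of other cells were examined to see what the sorted cells could include. In a bulk sample, fewer cells of a type and less RNA per cell cannot be told apart. The defining markers Ptprc (all blood cells) at 4.18, Adgre1 (macrophages) at 4.52, Mpo at 4.40 and Elane at 3.99 (granulocytes), and Pecam1 (endothelium) at 4.26 each failed to exceed background in at least 1 array. For Adgre1 that was WT 4 alone, by a very small margin, at 4.408 against 4.409, and the other arrays were above it. Of the macrophage list 14 of 19 were above background, a share near the 68.3% of all genes, with a median percentile of 43.3 and a summed log2 level between 98.7 and 103.3 over the arrays; Lyz2 at 8.49, Fcer1g at 7.59 and Ctss at 6.83 were its highest members. Of the osteoclast list 8 of 12 were above, also near that share, with Ctsk, which osteoblast cultures can also express, at 9.15 and Acp5 at 6.69. The granulocyte, lymphocyte and endothelial lists had 2 of 12, 3 of 12 and 7 of 12 members above background and median percentiles of 22.1, 19.9 and 32.9. The counts near the share of all genes say little about these cell types.

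Mesenchymal markers were a different matter. All 14 smooth muscle and pericyte genes were above background, with Acta2 at 12.91, Tpm1 at 11.66, Myl9 at 11.23 and Tagln at 11.02, while the mature smooth muscle myosin Myh11 averaged 5.90. In the chondrocyte list, Col2a1 was at the 98.0th percentile, but Acan (aggrecan) at 4.33 was not above background in every array and Sox9 averaged 6.45. In the adipocyte list, Scd1 at 11.08, Lpl at 9.76 and Pparg at 7.82 were well expressed; Fabp4 read 6.91, 8.03, 7.03 and 6.76 and Adipoq read 4.92, 4.56, 6.51 and 4.83, each higher in 1 array. The labelled sex was checked on 7 Y-linked genes, of which 4 were above background, beside 68.3% of all genes. These were Eif2s3y at 7.60, Uty at 6.82, Kdm5d at 6.17 and Sry at 5.84, the last close to the median of 5.68 over all genes. Usp9y, Zfy1 and Zfy2 were not above background, nor was Xist, the RNA of the inactive X chromosome, at 3.26. The count of Y-linked genes by itself says little about sex. Genes of liver, retina, germ cells, gut and pancreas gave 10 of 45 members above background and 0 in the top 10%. Skeletal muscle and neural genes, also foreign to this tissue, gave 9 of 12 and 7 of 12 above background, near the 68.3% of all genes, and 0 in the top 10%. The fibrillar collagen, bone matrix, transcription factor, mineralisation and osteocyte lists together gave 77 of 81 above background and 39 in the top 10%.

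The spread between the 4 arrays was small for most genes, and its median changed little with level. The median SD over genes was 0.125, the middle 50% of genes lay between 0.0842 and 0.178, and the 95th percentile was 0.308. From the lowest to the highest 10% of genes by level the median SD was 0.119 and 0.112, with 0.135 near the middle. The upper tail did change: the 95th percentile of SD was 0.248 in the lowest 10% and 0.378 in the sixth, and 1 and 62 genes there had a 2-fold range. In all, 342 genes, or 1.72%, had a range of at least 1 log2 unit, and 309 of them were above background. The count was 135 without WT 2 and 181 without WT 3. Of these 309, the highest array was WT 3 in 159 and WT 2 in 90, and the lowest was WT 2 in 149 and WT 3 in 68. The combination of highest in WT 3 and lowest in WT 2 took 107 genes, and its mirror image took 59. The first principal component of the gene-centred values held 48.9% of the variance and set WT 2, at −21.3, against WT 3, at 19.6.

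**Figure D3:**
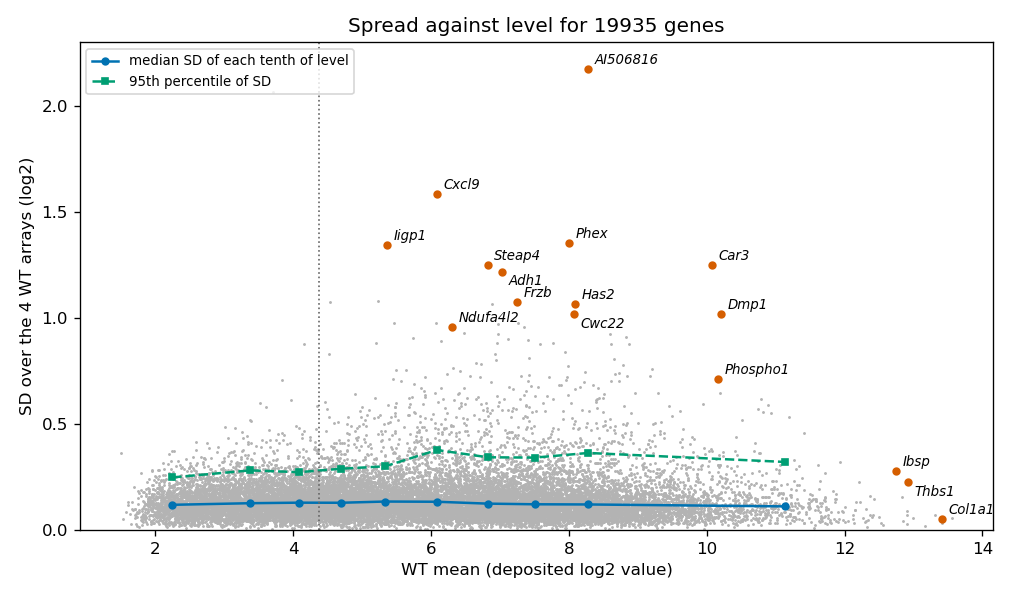
SD over the 4 WT arrays (vertical axis, log2) against the WT mean (horizontal axis, log2) for 19935 genes in grey, with named genes in orange, the median SD of each 10% of genes by level in blue and the 95th percentile in green. The blue line stays between 0.112 and 0.135, and the receptor background is dotted.

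A 2-fold range was more frequent among bone genes than among all genes, as it was in some other lists. Of the 81 bone genes in the 5 lists just named, 20 (24.7%) had a 2-fold range, beside 1.72% of all genes. The median SD of the 81 was 0.244. Among all genes above background 2.27% had a 2-fold range. Lists outside bone had comparable shares, with 5 of 16 glycolytic, 6 of 20 hypoxia and 8 of 30 chemokine and cytokine genes. Others, such as the translation factor and cell cycle lists, had 0. The lists were chosen with earlier results of these data known. In 15 of these 20 the lowest array was WT 2. Without WT 2 the count was 8, and without WT 3 it was 13. In the top 10% of all genes, where 42 had a 2-fold range, other genes of mineralising osteoblasts kept the same low value in WT 2, though they were picked after their values were seen. Panx3, a channel of osteoblasts, read 11.28, 10.12, 11.03 and 11.29. Tmem119, a membrane protein of osteoblasts, read 11.02, 9.80, 10.53 and 10.68, and the sphingomyelin synthase gene Sgms2 averaged 10.82.

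The 20 genes of largest SD above background fell into a few kinds. Phex, Dmp1, Ptprz1 and Frzb are described above, and Car3 (a carbonic anhydrase) at 9.96, 8.35, 11.11 and 10.88 and Kazald1 (an IGF-binding-protein-like gene) at 7.19, 6.29, 8.67 and 8.47 had the same order of arrays. Cxcl9, Cxcl10 and Iigp1, which interferon-gamma induces, were high in WT 3 alone: Cxcl9 read 5.53, 5.39, 8.44 and 4.99, and Iigp1 read 4.48, 4.80, 7.36 and 4.79. Steap4, Adh1 and Rgs5 were also highest in WT 3, at 8.57, 8.69 and 6.89. A further set was highest in WT 2: Ankrd1 at 8.31, Edn1 (endothelin) at 7.96, Ccl7 at 8.35, Lrrc32 at 8.76 and Has2 (hyaluronan synthase) at 9.16. Rgs4 was high in WT 4 alone at 8.68, and Ndufa4l2, a gene of the hypoxia response, read 7.26, 4.98, 6.57 and 6.39. Cwc22, a splicing factor gene with 8 probe sets, was high in WT 3 alone at 9.60. Of the 20 genes, 13 were highest in WT 3 and 5 in WT 2. A predicted transcript left out by the naming rule, AI506816, had the largest SD of all, 2.17, at 9.14, 5.08, 8.93 and 9.95.

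At the other extreme, the 10 steadiest genes above background had SDs of 0.00488 to 0.00887. Isoc1 read 8.24 or 8.25 in every array. Eif3f, a translation initiation subunit, averaged 9.97, Wwtr1 (the transcriptional coactivator TAZ) averaged 8.58, Nudcd2 averaged 9.27, and Wdr5, a histone methylation subunit, averaged 7.82. The others were Ccdc28b, Asb13, AY761185, Skp2 and Fam76b, with means between 5.91 and 7.56.

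Grouped by list, 11 of the 46 lists had means that differed by at least 0.3 between arrays. Beyond osteocyte genes these included hypoxia response (0.58), glycolysis (0.57), mineralisation (0.54) and interferon response (0.45). The interferon, chemokine and smooth muscle lists were all higher in WT 2 and WT 3 than in WT 1 and WT 4. Single arrays decided several of these ranges: without WT 2 that of mineralisation was 0.12, of osteoclast coupling signals 0.13, of hypoxia 0.33, and of the smooth muscle and chondrocyte lists 0.21 each. Without WT 3 the range of stromal progenitor genes was 0.11 and of Notch genes 0.18. Without WT 4 that of chondrocyte genes was 0.15, and without WT 1 that of Notch genes was 0.20. By contrast the translation factor list differed by 0.025, oxidative phosphorylation by 0.083 and the cell cycle by 0.12. Under quantile normalization or median centring, the highest array changed in 1 of the 11 lists (mineralisation, whose WT 3 and WT 4 means were close) and the lowest in 1 (osteoclast coupling signals).

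**Figure D4:**
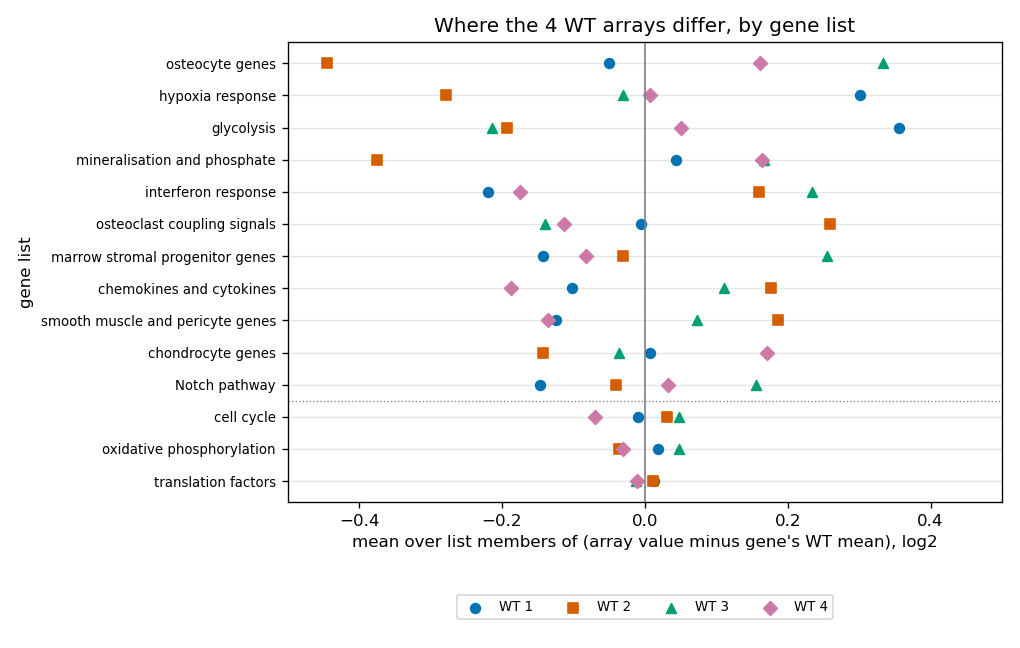
Mean over list members of the array value minus each gene's WT mean (horizontal axis, log2) in WT 1 to 4, for the 11 lists that ranged over at least 0.3 and, under the dotted line, 3 lists for comparison. WT 2 is lowest for osteocyte (−0.44), mineralisation (−0.37) and hypoxia genes (−0.28), and WT 1 is highest for glycolysis (0.36).

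Glycolysis and hypoxia genes were mostly highest in WT 1. On the centred scale the glycolysis mean was 0.36 in WT 1 and between −0.21 and 0.05 in the others, while the hypoxia mean was 0.30 in WT 1 and about as far below in WT 2, at −0.28. In WT 1, 14 of 16 glycolytic genes and 15 of 20 hypoxia genes had their highest value. Pgk1 (phosphoglycerate kinase) read 11.44, 10.82, 10.94 and 11.02, and Slc2a1, the glucose transporter, read 9.45, 8.88, 8.45 and 8.98. Slc16a3, which exports lactate, read 9.47, 7.77, 8.46 and 8.77, and Pdk1, which restrains pyruvate oxidation, read 7.56, 6.22, 6.74 and 6.90. Bnip3, a mitophagy receptor, read 9.19, 7.68, 8.28 and 8.47, and Ndrg1 read 8.92, 7.44, 8.53 and 8.78. The lowest array differed, being WT 3 in 11 glycolytic genes and WT 2 in 14 hypoxia genes. Some members went against the lists. In the hypoxia list 1 gene, Adm, was highest in WT 2, 2 genes in WT 3 and 2 in WT 4, among these P4ha1 at 11.11. In the glycolysis list 1 gene was highest in WT 2. The glycolytic gene Hk1 was highest in WT 3 by its brighter probe set, which was lowest in WT 1. Its other probe set went with the list, at 8.33, 8.05, 7.99 and 8.06, highest in WT 1. Without WT 1 the ranges of the list means were 0.26 for glycolysis and 0.29 for hypoxia.

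The letters ACGTG, the core bound by hypoxia-inducible factors, were searched on both strands of the 250 bases before the start. They occurred in 5 of 9 glycolytic genes and 9 of 14 hypoxia genes that had a single listed start, and in 18.2% of all 12933 such genes. This motif and the interferon motif below were added after the data were seen. Slc2a1, Bnip3 and Pgk1 are shown as examples of genes that were highest in WT 1 and hold the motif, with ACGTG or its reverse complement in capitals in the 150 bases before the start; in Bnip3 the motif overlaps its own reverse complement. They lie at chr4:119108595-119108744 (plus strand), chr7:138909507-138909656 (minus) and chrX:106186950-106187099 (plus).
Slc2a1: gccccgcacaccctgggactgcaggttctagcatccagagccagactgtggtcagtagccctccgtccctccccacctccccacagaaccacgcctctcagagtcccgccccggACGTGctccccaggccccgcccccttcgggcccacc
Bnip3: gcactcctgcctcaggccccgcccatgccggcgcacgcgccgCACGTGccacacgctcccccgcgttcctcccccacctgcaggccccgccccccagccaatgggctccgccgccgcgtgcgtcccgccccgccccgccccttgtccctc
Pgk1: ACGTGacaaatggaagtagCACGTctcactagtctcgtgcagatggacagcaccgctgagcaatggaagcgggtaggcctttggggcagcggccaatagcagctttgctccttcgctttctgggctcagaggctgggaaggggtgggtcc
Pfkl and Car12 were also highest in WT 1, with a 2-fold range, and held no ACGTG in the searched window. A match describes the letters and is not evidence of binding in these cells.

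Interferon-response genes were higher in WT 2 and WT 3. Of 27 measured members 25 were above background, beside 68.3% of all genes, and 0 were in the top 10%. The highest value was in WT 2 for 11 and in WT 3 for 12, and 13 had their lowest in WT 1. Ifit1 read 5.04, 6.38, 6.42 and 5.55, and Ifit3 read 4.34, 4.88, 5.50 and 4.42. Bst2 (tetherin) read 7.78, 8.22, 8.73 and 8.06, and Irf7, a factor that amplifies interferon, read 6.27, 7.12, 6.99 and 6.43. WT 2 and WT 3 thus exceeded both other arrays in each of these 4 genes, whereas Cxcl9 and Cxcl10 were higher in WT 3 alone. Beside this, the macrophage list was at 0.04, 0.09 and −0.16 in WT 2, WT 3 and WT 4 and 0.03 in WT 1 on the same centred scale, and its part in the result was not tested.

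The pattern GAAANNGAAA, a form of the interferon-stimulated response element, was found in either strand of the upstream sequence of 8 of 18 interferon-response genes and of 3.02% of all genes with a single listed start. Ifit1, Ifit3 and Bst2 are shown because they hold it and were higher in WT 2 and WT 3. These are the 200 bases before the start on the gene's strand, with the pattern or its reverse complement in capitals; in Bst2 a pair of matches overlap. They lie at chr19:34640689-34640888 (plus strand), chr19:34583329-34583528 (plus) and chr8:71537473-71537672 (minus).
Ifit1: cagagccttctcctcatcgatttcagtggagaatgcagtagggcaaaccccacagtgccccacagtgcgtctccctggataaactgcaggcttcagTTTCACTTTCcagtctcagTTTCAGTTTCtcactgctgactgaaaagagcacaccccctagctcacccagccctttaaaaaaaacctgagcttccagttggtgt
Ifit3: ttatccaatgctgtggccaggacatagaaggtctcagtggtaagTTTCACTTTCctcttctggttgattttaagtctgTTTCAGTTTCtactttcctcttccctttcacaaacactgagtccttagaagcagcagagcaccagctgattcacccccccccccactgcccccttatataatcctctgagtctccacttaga
Bst2: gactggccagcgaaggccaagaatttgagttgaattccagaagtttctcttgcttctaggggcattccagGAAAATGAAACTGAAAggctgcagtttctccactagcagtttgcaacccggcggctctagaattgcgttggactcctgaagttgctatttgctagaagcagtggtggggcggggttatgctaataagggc
Neither Irf7 nor Oasl2 held the pattern in the searched window, which says nothing about other positions.

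Upstream sequence also differed along the order of genes by array signal, in part among genes near or below background. The median ratio of observed to expected CpG in the 250 bases before the start was 0.13 in the lowest 10% of genes and 0.80 in the highest, and GC content was 38.0% and 61.6%. The GC-box core GGGCGG occurred in 7.58% and 66.3% of these genes. TATAAA within 40 bases of the start ran against this, at 6.52% in the lowest, 1.02% in the eighth and 2.38% in the highest 10%. Among the 30 highest genes it was found in 3 of 18. CCAAT, on either strand, changed little with level and occurred in 35.9% of all genes, yet in 22 of 30 cell cycle genes. AACCACA, a Runx consensus, occurred in 3.67% of all genes and in 0 of 8, 14, 9 and 11 genes of the fibrillar collagen, bone matrix, mineralisation and osteocyte lists. The lowest 3 steps of 10% reach means of only 4.40, near the background of 4.37, so the order of genes within them is uncertain. With only genes at or above the 40th percentile, the CpG difference between the highest and lowest 10% was 0.312, beside 0.670 for all genes.

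**Figure D5:**
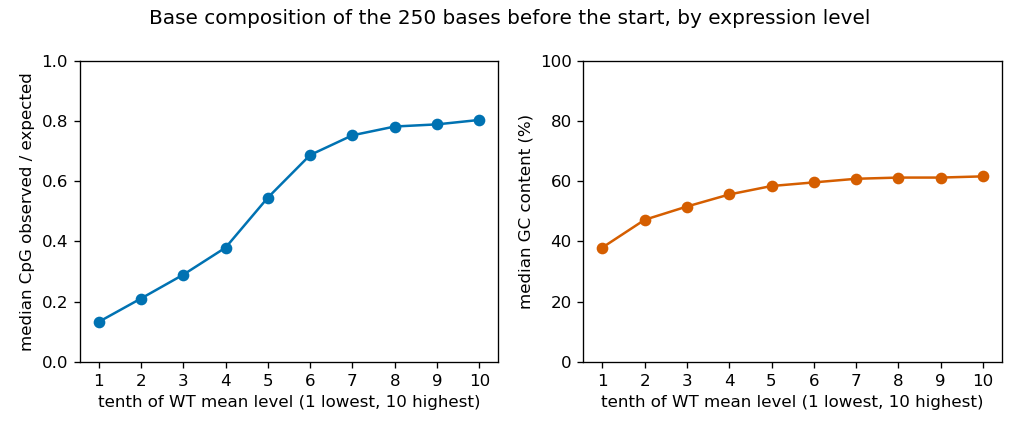
Median observed over expected CpG (left, ratio) and median GC content (right, percent) of the 250 bases before the start for 12933 genes, by 10% step of WT mean level. The CpG ratio goes from 0.13 to 0.80 and GC content from 38.0% to 61.6%, with most of the difference in the lower steps.

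Cdk1 and Ccnb2, which drive entry into mitosis, show the CCAAT pattern of the cell cycle list. Cdk1 read 8.72, 8.66, 8.91 and 8.70, and Ccnb2 read 8.66, 8.88, 9.05 and 8.74. CCAAT or its reverse complement is in capitals in the 150 bases before the start, at chr10:69352913-69353062 and chr9:70421555-70421704, both on the minus strand.
Cdk1: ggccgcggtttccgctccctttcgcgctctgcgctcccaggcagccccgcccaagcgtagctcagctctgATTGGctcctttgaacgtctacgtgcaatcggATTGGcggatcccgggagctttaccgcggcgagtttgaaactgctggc
Ccnb2: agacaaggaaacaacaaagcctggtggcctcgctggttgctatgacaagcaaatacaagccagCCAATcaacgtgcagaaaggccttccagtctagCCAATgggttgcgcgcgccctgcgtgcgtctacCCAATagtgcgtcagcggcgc
The Cdk1 sequence held 2 matches and the Ccnb2 sequence held 3.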

How the data were processed

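Total RNA of the 4 WT samples was measured on single-channel Affymetrix whole-transcript arrays. The authors deposited a table of log2 expression values with 28815 probe sets. Per the submitters' processing notes RMA and limma were used, without versions or settings; genome build and probe annotation were not given in the sources used here. RMA-type values of low genes are compressed, which understates their differences, and arrays have no read depth: the number of arrays limits the precision. Values were used as deposited, with no further normalization.

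Gene symbols were taken from the platform annotation, which can be old: 21780 had 1 symbol, 1605 several and 5430 were not listed. The brightest single-symbol probe set stood for each gene, and 19853 of 19935 genes matched RefSeq (GRCm38.p6). Means, SDs, ranges and ranks were computed in Python 3.11.15 with numpy 2.4.6, pandas 2.3.3 and matplotlib 3.10.9; the calculation was tested on simulated data. There is 1 group, so no test was made. Genes above background exceed, in every array, the 95th percentile of the chemosensory receptor genes. The named genes are the 30 highest, the 20 of largest and 10 of smallest SD above background (leaving out predicted genes, small RNAs, histones, ribosomal protein and receptor families), the 4 markers, all members of the neuropeptide Y, Y-linked and 5 bone lists, and the highest, lowest and most variable members of the other lists; some further genes were chosen after their values were seen. The members and lists were chosen with earlier results of these data known. Promoters come from the RefSeq table, for the 12933 genes with 1 listed start; the protein features that had been planned were not computed. All sample columns of the deposited table could be mapped to a sample. Alternatives were other probe set rules, quantile normalization, median centring, a filter on low values, other background percentiles and leaving out each array.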

Additional observations from a re-analysis of the deposited data

Results flagged for a closer look

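In a group of 4, 1 array can stand apart from the other 3 by a gap that takes up most of the range. Chance alone gives this in about 1 in 20 groups. Of all genes 5.74% met the rule, and among 212 of the genes given here 18 did. None of the 46 list means met it.

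WT 2 stood apart on the low side for Ibsp at 12.34, Phospho1 at 9.11, P4ha1 at 9.90, Sp7 at 9.70, Sgms2 at 9.998 and Nudcd2 at 9.26. It stood apart on the high side for Csf1 at 10.79 and Tagln at 11.31. WT 3 stood apart on the high side for Cxcl9 at 8.44, Iigp1 at 7.36, Cwc22 at 9.60, Igfbp5 at 10.33, Tpt1 at 12.36 and Wwtr1 at 8.59, and on the low side for Hspa8 at 12.16 and Col6a3 at 10.79. The gaps of Nudcd2 and Wwtr1 are tiny, since both are among the steadiest genes. WT 1 stood apart for Npy6r at 2.18 and WT 4 for Usp9y at 2.38, both under the background.

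Outside the gene profile, 903 probe sets with several gene symbols and 2390 unlisted probe sets were above the receptor background in every WT array, and they belong to no value given here.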

How the results depend on the processing

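No paired analysis was possible because only WT arrays were used and no test was made. Leaving out each array in turn gave 135 to 303 genes with a 2-fold range (135 without WT 2, 181 without WT 3), a median SD of 0.108 to 0.126 (0.104 to 0.128 above background), 6 to 9 lists with a range of 0.3 (6 without WT 2), a background level of 4.33 to 4.38, 62.2% to 66.9% of variance on the first component of 3 arrays, 10 to 18 shared genes among the 20 of largest SD, 29 to 30 among the 30 highest, and a CpG ratio difference between the highest and lowest 10% of genes of 0.667 to 0.670. Fewer arrays give smaller ranges by construction. With a gene's probe sets averaged, the median level was 5.65 and the CpG difference 0.667; with all probe sets as units the median level was 5.71 and the lowest marker percentile 99.2. Keeping genes at or above the 40th percentile gave a median level of 7.16, 56.1% on the first component, a lowest marker percentile of 99.2 and a CpG difference of 0.312. Of 120 values of summary results under an alternative, 95 stayed close to the reported value. Of 850 values of single lists and markers 592 did, and those that did not include 66 ranges of list means with 1 array left out. For counts, close meant within a fixed fold of the reported value, whatever the spread. For other values it meant within 1 SD, taken over the arrays or over the results with each array left out. The count of bone genes without each array was added after seeing the data. The number of genes above background ran from 10867 (99th percentile of the receptors) to 14811 (90th). Signals near 4.37 cannot be told from background, and 4 arrays of unknown animal number limit how far any spread can be read.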

Other observations

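Lists not yet described held some further values. Integrins and cadherins had 19 of 20 members above background, led by Itgb1 at 11.33 and Cdh11 (osteoblast cadherin) at 11.31, while the epithelial Cdh1 averaged 4.70. Gja1 (connexin 43), the gap junction protein of osteoblasts, read 11.17, 10.70, 11.08 and 10.96. Marrow stromal progenitor genes were all above background, 17 of 17, with Pdgfrb at 10.49 and Ebf3 at 7.34, 7.58, 8.42 and 7.67, highest in WT 3 as were 10 of the 17. Skeletal muscle, neural, and erythroid and megakaryocyte genes had 9 of 12, 7 of 12 and 7 of 10 members above background, shares near the 68.3% of all genes, and none in the top 10%, with median percentiles of 40.8, 36.0 and 37.5.

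By RefSeq gene type, 70.4% of protein-coding genes, 42.7% of long non-coding RNA genes and 31.3% of microRNA genes were above background. The highest long non-coding RNAs were Malat1 at 11.00, Gas5 at 10.44 and Tug1 at 9.16. Gas5 read 10.59, 10.47, 10.77 and 9.95, lowest in WT 4. The highest microRNA probe sets were Mir692-1 at 8.85 and Mir320 at 7.99; these probe sets cover hairpin genes and do not measure mature microRNAs.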
